A study of Mus musculus with 15 samples.

Results

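The genes for hnRNP and SR splicing factors were examined as RNA targets of tristetraprolin (TTP). Members were the mouse protein-coding genes whose GENCODE M21 name began with Hnrnp (except Hnrnpd), was Srsf followed by a digit, or was Tra2a, Tra2b, Ptbp1, Ptbp3, Pcbp1, Pcbp2 or Syncrip. These were 37 of 21951 protein-coding genes, and 1394 of the 162273 crosslink sites summed over the 6 deposited site lists lay in them on the sense strand. All 1394 sites were assigned to 1 gene each, and 0 sites lay antisense within the member genes.

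TTP is a zinc finger protein that binds AU-rich elements in 3′UTRs and recruits the deadenylation machinery to the bound mRNA. The kinase MK2 phosphorylates TTP after lipopolysaccharide (LPS) and so restrains it. hnRNP proteins coat nascent RNA and often block splice sites, while SR proteins carry arginine and serine rich domains and promote exon recognition. Many of these factors are abundant in every cell type and regulate their own mRNAs through introns and exons of the gene.

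The cells were TTP-deficient bone marrow-derived macrophages of C57BL/6 mice, immortalized with the oncogenes hcmyc and hRasG12V and positive for the surface markers CD11b and F4/80. They carried a doxycycline-inducible GFP-TTP, or GFP-TTP-AA in which the serines targeted by MK2 were replaced by alanine. Both constructs held the coding sequence alone. All cells received doxycycline for 6 h. LPS was absent (0 h) or present for 1 h or 4 h, and crosslinked RNA was purified with a GFP-binding nanobody. iCLIP counts unique cDNAs that stop next to the crosslinked nucleotide. GFP-TTP was measured in 2, 4 and 2 libraries at 0, 1 and 4 h and GFP-TTP-AA in 2, 3 and 2, but each group was deposited as 1 pooled list, so no value below has a replicate error and every test compares 2 lists rather than 2 conditions. No list from GFP-only cells or RNA level was used here, so RNA abundance and binding cannot be told apart. The 6 lists held 19167 to 174397 cDNAs. The share of cDNAs lying in the 3′UTRs of protein-coding genes ranged from 3.12% (GFP-TTP, 4 h) to 53.6% (GFP-TTP-AA, 1 h). The headers of both 1 h lists name a peak calling mode that the other headers lack, and the effects of LPS time and peak calling therefore cannot be told apart. Of 10 macrophage marker genes, 9 had 3′UTR cDNAs in the GFP-TTP-AA 1 h list, 4 in GFP-TTP at 1 h and 1 in GFP-TTP at 0 h. None had any in GFP-TTP-AA at 0 h or in either 4 h list. The 5 T cell and 4 B cell markers had 0 cDNAs in all lists, and the fibroblast and epithelial lists had 0 3′UTR cDNAs. In GFP-TTP-AA at 0 h and 4 h the macrophage markers had 0 cDNAs in any region, so there they did not differ from the T cell and B cell markers.

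Splicing factor mRNAs were crosslinked mainly by TTP-AA at 1 h of LPS. Without LPS, member 3′UTRs held 64 GFP-TTP and 94 GFP-TTP-AA cDNAs. After 1 h they held 119 and 1470, and after 4 h 8 and 0. The 1 h GFP-TTP-AA list was far above the other 5. The ratio of TTP-AA to TTP cDNAs was 1.47 at 0 h (95% exact counting interval 1.06 to 2.05) and 12.4 at 1 h (10.2 to 15.0). Over all protein-coding 3′UTRs the same ratios were 1.38 and 9.78. Per pooled library, the 1 h member ratio was 16.5, which is not comparable with the 9.78 because that ratio was not divided by libraries. Intervals throughout cover counting error only.

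As a share of each list's 3′UTR cDNAs, members took 1.46% in GFP-TTP (Wilson 95% interval 1.15 to 1.87) and 1.56% in GFP-TTP-AA (1.28 to 1.91) at 0 h. At 1 h they took 1.25% (1.04 to 1.49) and 1.57% (1.49 to 1.65). The intervals overlapped at 0 h and touched at 1.49% at 1 h. At 4 h the share was 0.883% in GFP-TTP (0.448 to 1.73). In the GFP-TTP-AA 4 h list 0 of 1000 3′UTR cDNAs lay in members, where 3 counts would be 0.3% and the Wilson upper limit is 0.383%.

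Of the 37 members, 31 had 3′UTR cDNAs in the GFP-TTP-AA 1 h list (83.8%), compared with 20.4% of all protein-coding genes. GFP-TTP at 1 h had 3′UTR cDNAs in 18 of the 37 members, compared with 5.9% of all protein-coding genes, and all 18 were among the 31. At 0 h each protein had 11 members, 8 of them shared, or 72.7% of either set. The same overlaps were not counted over all genes, so they cannot be read as particular to the members. At 4 h the GFP-TTP list had 2, Hnrnph1 and Ptbp3. In the GFP-TTP-AA 1 h list the member counts ran from 3 to 162 with a median of 35, against a median of 8 over the 4468 genes with any 3′UTR cDNA. Of the 31, 19 members had 30 or more, 5 had 10 to 29 and 7 had fewer than 10. The leading 5 members supplied 42.4% of the member cDNAs.

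**Figure D1:**
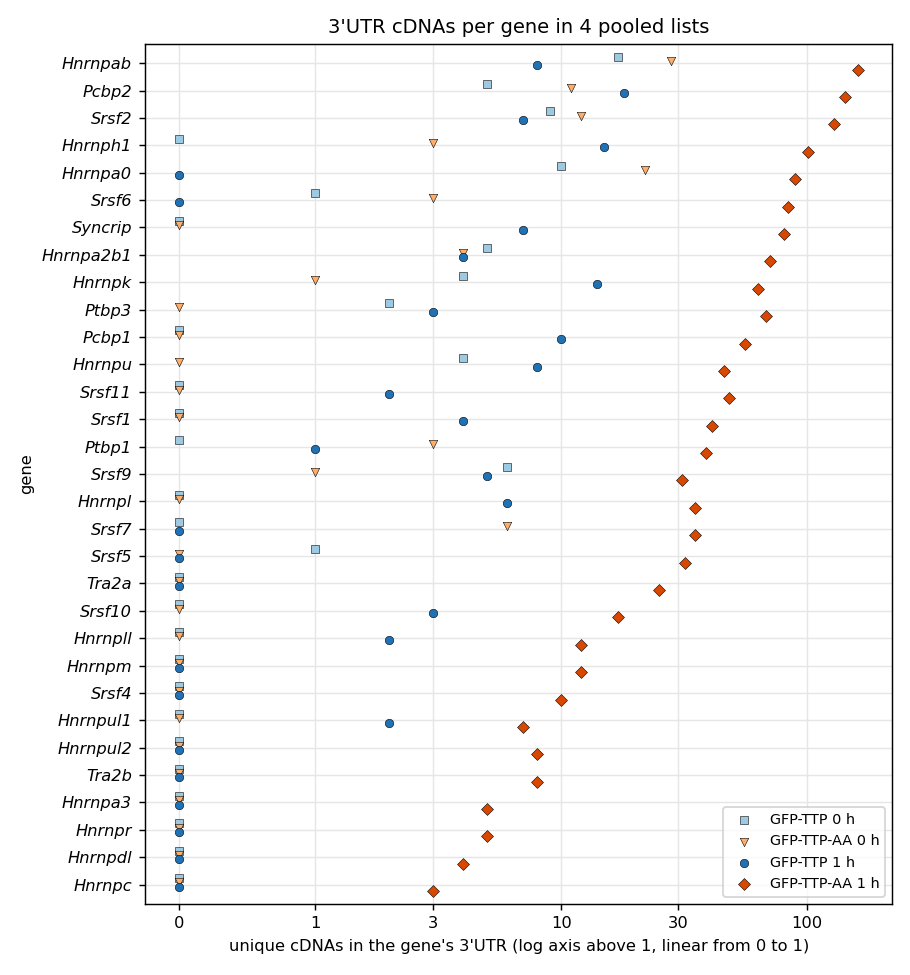
Unique cDNAs in the 3′UTR of each of 31 members (rows, ordered by the sum over 6 lists) in 4 pooled lists; the x axis is logarithmic above 1 and linear from 0 to 1. The GFP-TTP-AA 1 h point is the rightmost in every row and reaches 162 for Hnrnpab, while 13 members have 0 GFP-TTP cDNAs at 1 h.

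Family sums at 1 h differed in size. The 20 hnRNP genes, with Syncrip counted as hnRNP Q, held 66 TTP and 704 TTP-AA 3′UTR cDNAs, a ratio of 10.7 (8.28 to 13.9). The 11 Srsf genes held 21 and 427, a ratio of 20.3 (13.1 to 33.2). The Pcbp pair of poly(C)-binding proteins held 28 and 199, a ratio of 7.11 (4.77 to 11). The Ptbp pair of polypyrimidine tract-binding proteins held 4 and 107, a ratio of 26.8 (10.1 to 100.0), and the Tra2 pair of SR-like factors held 0 and 33. The SR interval lay above the PCBP interval, and the other intervals overlapped. No test was made over these sums.

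Sequences under the leading sites show where on the mRNA the proteins were crosslinked. The windows below are the 30 bases around the 3′UTR site with most cDNAs summed over the 6 lists, for the 8 members with most 3′UTR cDNAs. The crosslinked base is the 15th, ties went to the lowest coordinate, and the sequences are those of GENCODE M21 transcripts (GRCm38), 5′ to 3′. Capitals mark AUUUA, the core of the AU-rich element, and runs of 5 or more U.
Hnrnpab: uuaauuuuauauuauuugugucauacauuu
Pcbp2: acucaugaUUUUUUaauuaaaguguuuuaa
Srsf2: agacuuaaUUUUUUUUUUaaaggauuguuu
Hnrnph1: uuuaaagcucUUUUUUUUUaUUUUUaaguu
Hnrnpa0: acucuaUUUUUUUauuauuacuuggaccuu
Srsf6: uguuuugcuuaUUUUUaaauuaacuguuca
Syncrip: uuuugucguauuuuguggcugaaaaagcag
Hnrnpa2b1: gugaauggauuggauuAUUUAauaacauua

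A run of at least 5 U lay in 5 of these 8 windows, those of Pcbp2, Srsf2, Hnrnph1, Hnrnpa0 and Srsf6. The Hnrnpa2b1 window alone held AUUUA. The Hnrnpab and Syncrip windows held neither. The windows lie at chr11:51601023-51601052 (minus strand), chr15:102498655-102498684 (plus), chr11:116850401-116850430 (minus), chr11:50386332-50386361 (plus), chr13:58127182-58127211 (minus), chr2:162935076-162935105 (plus), chr9:88453424-88453453 (minus) and chr6:51463069-51463098 (minus), in the order of the sequences.

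Counts of single genes in the next paragraphs are of 3′UTR cDNAs. Hnrnpab (ENSMUSG00000020358.17), an hnRNP A/B type RNA-binding protein, had the most 3′UTR cDNAs. Without LPS it had 17 cDNAs for TTP and 28 for TTP-AA, after 1 h 8 and 162, and after 4 h 0 and 0. The TTP-AA count was higher at 1 h than at 0 h, whereas the TTP count was lower at 1 h than at 0 h. After 1 h, 122 of the 162 TTP-AA cDNAs (75.3%) fell in one cluster between nucleotides 341 and 498 of a 1308 nt 3′UTR, where a cluster joins sites at most 15 nt apart. The printed window lies in that cluster and held 44 TTP-AA and 4 TTP cDNAs at 1 h. At 0 h it held 9 of the 17 TTP and 0 of the 28 TTP-AA cDNAs.

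Pcbp2 (ENSMUSG00000056851.14), which binds C-rich RNA in stability and translation control, had 5 cDNAs for TTP and 11 for TTP-AA without LPS, 18 and 143 after 1 h, and 0 and 0 after 4 h. It was the member with most TTP cDNAs at 1 h. Of its TTP-AA cDNAs at 1 h, 84.6% lay between nucleotides 85 and 263 of 1536. Pcbp1, its intronless relative, had 10 and 56 after 1 h and 0 in the other 4 lists.

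Srsf2 (ENSMUSG00000034120.18), the SR protein SC35, had 9 cDNAs for TTP and 12 for TTP-AA without LPS, 7 and 129 after 1 h, and 0 and 0 after 4 h. The window around its leading site contains a run of 10 U and held 7 TTP cDNAs at 1 h, which is every TTP cDNA of this 3′UTR in that list. It held 37 of the 129 TTP-AA cDNAs.

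Hnrnph1 (ENSMUSG00000007850.16), a G-tract-binding splicing regulator, had 0 cDNAs for TTP and 3 for TTP-AA without LPS, 15 and 101 after 1 h, and 5 and 0 after 4 h. It was one of the 2 members with 3′UTR cDNAs at 4 h. Its sites were concentrated, with 92.1% of the TTP-AA 1 h cDNAs between nucleotides 558 and 598 of 752. The printed 30 bases alone held 82 of 101 TTP-AA and 14 of 15 TTP cDNAs at 1 h, and all 5 TTP cDNAs at 4 h.

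Hnrnpa0 (ENSMUSG00000007836.6), a single-exon gene for an hnRNP A type protein that itself binds AU-rich RNA, had 10 cDNAs for TTP and 22 for TTP-AA without LPS, 0 and 89 after 1 h, and 0 and 0 after 4 h. Of the TTP-AA 1 h cDNAs, 53 lay between nucleotides 189 and 221 of 1517. The printed window in that cluster already held 5 TTP and 16 TTP-AA cDNAs before LPS. Srsf6 (ENSMUSG00000016921.14), the SR protein SRp55, had 1 and 3 without LPS, 0 and 84 after 1 h, and 0 and 0 after 4 h. Both genes were thus at 0 TTP cDNAs at 1 h while among the leading TTP-AA targets.

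Syncrip, or hnRNP Q, had 7 cDNAs for TTP and 81 for TTP-AA after 1 h and 0 in the 3′UTR in the other 4 lists. The TTP-AA cDNAs were spread over 15 clusters in its 7245 nt 3′UTR, the largest with 12 cDNAs. Hnrnpa2b1, an hnRNP A/B protein that also guides RNA transport, had 5 and 4 without LPS, 4 and 71 after 1 h, and 0 and 0 after 4 h. Ptbp3 had 2 and 0 without LPS, 3 and 68 after 1 h, and 3 and 0 after 4 h, and its TTP-AA cDNAs were dispersed over 17 clusters of at most 6 cDNAs. Hnrnpk, a poly(C)-binding hnRNP, had 4 and 1 without LPS, 14 and 63 after 1 h, and 0 and 0 after 4 h.

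The remaining 21 members with 3′UTR cDNAs held 3 to 56 in the GFP-TTP-AA 1 h list and 0 to 10 in the GFP-TTP 1 h list, and none had 3′UTR cDNAs at 4 h. Members near the top of that range were Srsf11 with 48, Hnrnpu (scaffold attachment factor A) with 46, Srsf1 (the founding SR protein ASF/SF2) with 41 and Ptbp1 with 39 TTP-AA cDNAs. At the bottom were Hnrnpa3 and Hnrnpr with 5 each, Hnrnpdl with 4 and Hnrnpc with 3. Hnrnph3, Srsf12 and Srsf3 had 0 cDNAs in any region of any list, and Hnrnpa1, Hnrnpf and Hnrnph2 had cDNAs outside the 3′UTR alone. In the GFP-TTP-AA 1 h list 3 counts would be 0.00321% of the 3′UTR cDNAs. A count of 0 means that peak calling kept no site, not that no cDNA was sequenced there. Srsf3, whose product is SRp20, shared 24.7% of the 30-base windows of its 3′UTR exactly with the transcript of another gene. Whether that transcript lies at the same genomic position was not checked. It is therefore not known whether reads could be placed uniquely there. For Hnrnpa1, Hnrnpf, Hnrnph2 and Hnrnph3 this share was 0.0%.

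**Figure D2:**
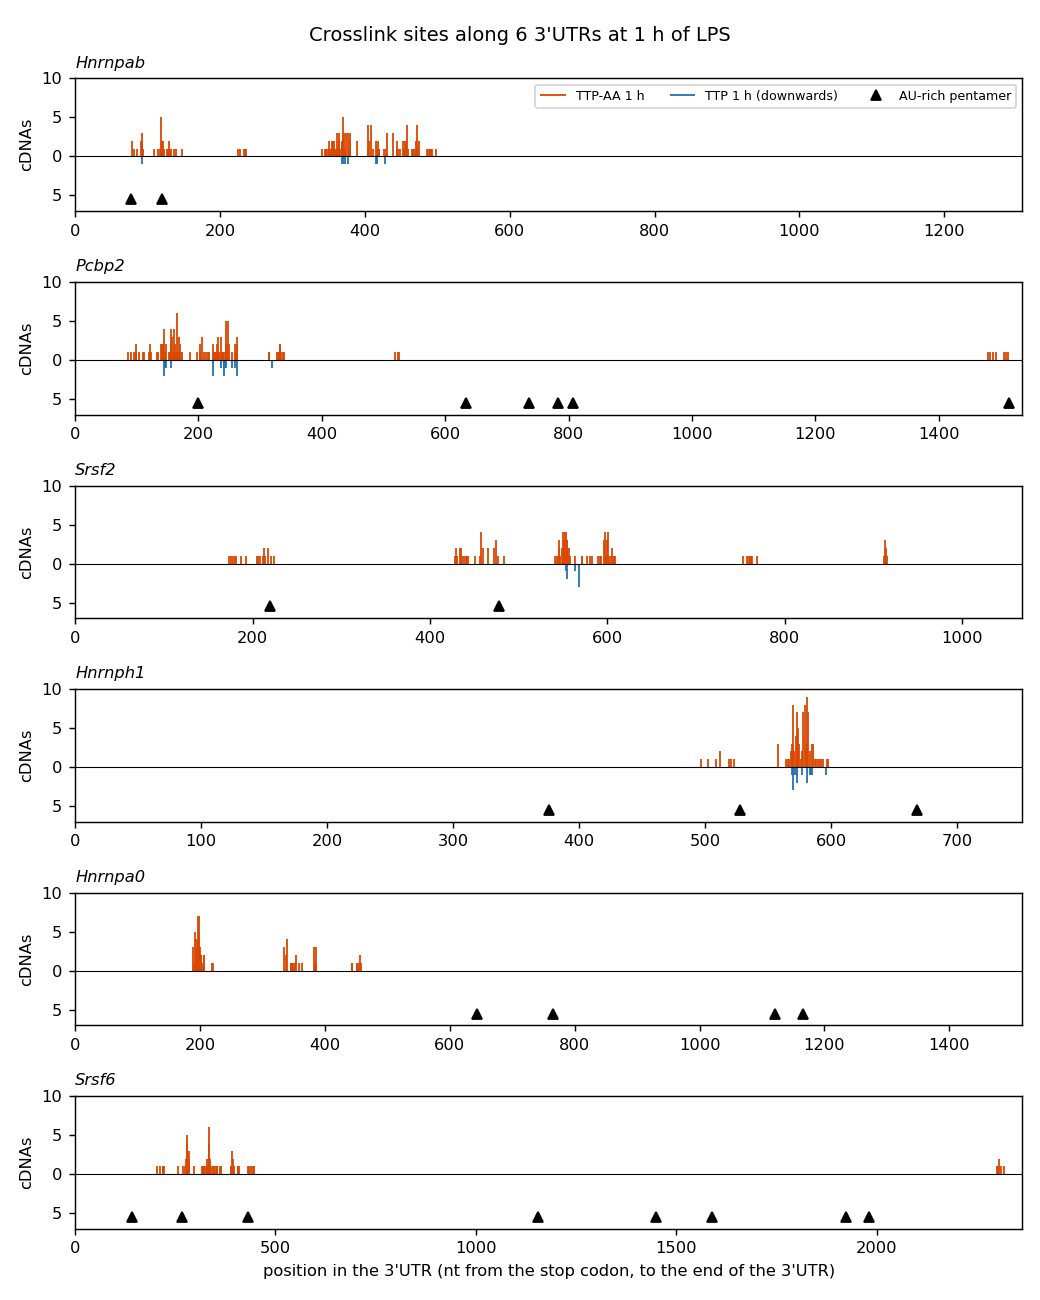
cDNAs per crosslink site along the 3′UTR of the 6 leading members at 1 h of LPS, by distance from the stop codon; bars upwards are GFP-TTP-AA, bars downwards GFP-TTP, and triangles mark the AU-rich pentamer. The Hnrnph1 sites pile up between nucleotides 558 and 598, between its pentamers at nucleotides 526 and 666, and Hnrnpa0 and Srsf6 have no GFP-TTP bars.

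Most TTP sites in these 3′UTRs lay near a TTP-AA site at 1 h, but not the reverse. Of the 95 TTP 3′UTR sites in members, 85.3% (76.8 to 91.0) had a TTP-AA site within 15 nt, and 49.5% had one at the same nucleotide. Of the 1027 TTP-AA sites, 26.1% (23.5 to 28.9) had a TTP site within 15 nt, and 4.58% had one at the same nucleotide. At 0 h these shares were 38.6% of 57 TTP sites (27.1 to 51.6) and 44.4% of 72 TTP-AA sites (33.5 to 55.9). The 1 h TTP-AA list holds many more sites than the others, which sets how much of each list can be shared.

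The AU-rich core was less frequent next to member sites than next to sites of all genes. AUUUA was found within 20 nt of 18.2% of the 1027 TTP-AA member sites at 1 h (16 to 20.7), against 34.6% over the sites of all protein-coding genes (34.2 to 35). For TTP at 1 h the shares were 9.47% of 95 member sites (5.06 to 17.0) and 37.7% over all genes (36.6 to 38.9). Counted over every position of the same 3′UTRs, AUUUA was that near for 10.1% of positions in the TTP-AA member set and 11.1% in the TTP member set. The member share was therefore 1.81 times that of all positions for TTP-AA and 0.857 times for TTP, compared with 3.94 and 4.22 times over all genes. The TTP ratio depended on the window and was 1.21 within 10 nt and 1.6 within 50 nt. At 0 h the member ratios within 20 nt were 2.34 for TTP and 2.27 for TTP-AA, against 5.2 and 4.62 over all genes. At 0 h AUUUA lay near 17.5% of 57 TTP sites (9.82 to 29.4) and 19.4% of 72 TTP-AA sites (12 to 30), against 45.7% and 33.7% over all genes. In each of these 4 lists the member interval lay below that of all genes. Sites within a cluster share their sequence, so these intervals are too narrow.

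For the pentamer UUUUU the raw share was higher next to member sites in 3 of the 4 lists. It lay within 20 nt of 69.5% of TTP member sites at 1 h (59.6 to 77.8) and 43.6% of TTP-AA member sites (40.6 to 46.7), against 37.0% and 34.6% over all genes. At 0 h the member shares were 61.4% for TTP (48.4 to 72.9) and 47.2% for TTP-AA (36.1 to 58.6), against 42.7% and 46.4%. The 0 h TTP-AA shares overlapped. Every position of the member 3′UTRs gave 20.1% to 22.2%, against 13.4% to 14.2% for all genes. Relative to the positions of the same 3′UTRs, the member share was 2.77 and 2.27 times as high for TTP and TTP-AA at 0 h and 3.14 and 2.17 times at 1 h, against 3.0, 3.33, 2.77 and 2.53 times over all genes, so that on this scale members were below all genes in 3 of the 4 lists and above them for TTP at 1 h. UAUUUAU, the heptamer that TTP prefers, lay near 2.53% of TTP-AA member sites at 1 h (26 of 1027, 1.73 to 3.68), against 16% over all genes. It was that near for 0.608% of member positions and 1.99% over all genes, so the ratios to positions were 4.16 and 8.05. It lay near 0 of the 95 TTP sites, where 3 sites would be 3.16% and the Wilson upper limit is 3.89%. For that TTP set it was near 0.607% of positions, too few for the 0 to show a depletion. UGUGU lay near 8.37% of the 1027 TTP-AA sites (6.83 to 10.2), compared with 9.23% over all genes. For TTP it lay near 17.5% of member sites at 0 h (9.82 to 29.4), against 7.23% over all genes (6.41 to 8.16), and near 4.21% at 1 h (1.65 to 10.3), against 10.0% (9.34 to 10.8). Shares depend on the window: within 50 nt AUUUA lay near 34.5% of the TTP-AA and 40% of the TTP member sites at 1 h.

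**Figure D3:**
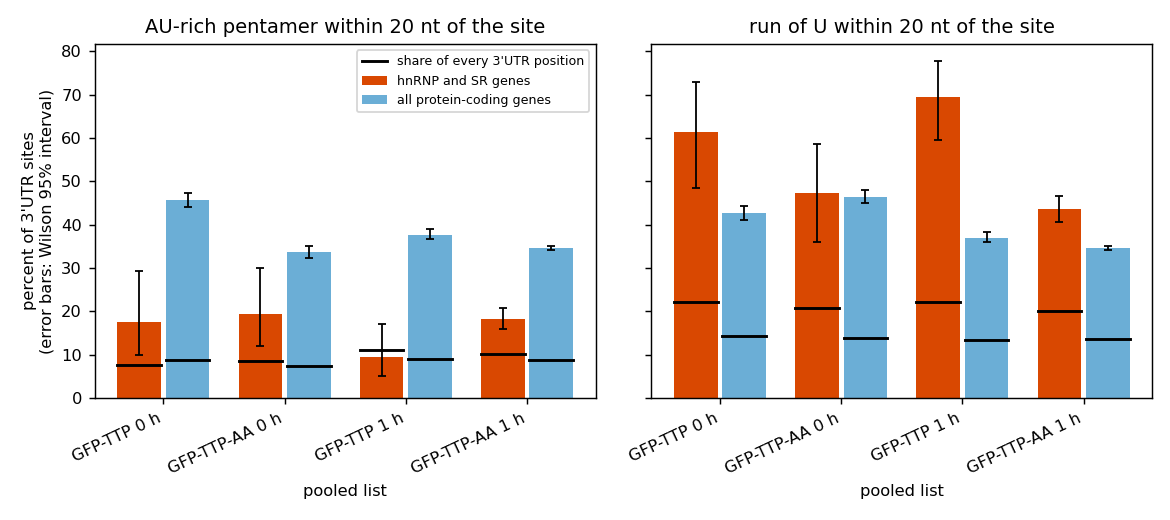
Share of 3′UTR sites with the AU-rich pentamer (left) or a run of 5 U (right) within 20 nt, for hnRNP and SR genes and for all protein-coding genes in 4 pooled lists; error bars are Wilson 95% intervals and black lines give the share of every position of the same 3′UTRs. Members are lower than all genes on the left in each list, and higher on the right except for GFP-TTP-AA at 0 h, where 47.2% and 46.4% overlap; the black lines on the right are also higher for members.

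These mRNAs did contain the motif. AUUUA occurred in the longest 3′UTR of 35 of the 37 members (94.6%) and of 65.2% of all genes with a 3′UTR, with medians of 3 and 1 copies in 3′UTRs of median length 1429 and 960.5 nt. UAUUUAU occurred in 29.7% of members and 27.6% of all genes. Srsf4 and Srsf9, which lacked AUUUA, still held 10 and 31 TTP-AA cDNAs at 1 h. In Hnrnpa0, Hnrnpk, Srsf5 and Srsf7 the 3′UTR holds AUUUA, but 0 of their 41, 49, 25 and 26 TTP-AA sites at 1 h lay within 20 nt of it. The opposite was seen in Hnrnpll (7 of 10 sites near AUUUA), Srsf10 (10 of 15) and Tra2a (14 of 24). Over the 37 members, Spearman's rho between the number of AUUUA in the longest 3′UTR and the TTP-AA 1 h cDNAs was 0.128, and between 3′UTR length and those cDNAs 0.038, given as descriptions over genes measured in one list.

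The crosslinked base was U at 64.7% of TTP-AA member sites at 1 h (61.7 to 67.5) and 71.6% of TTP member sites (61.8 to 79.7), against 61.6% and 63.7% over all genes. UV crosslinks form most readily at U, and this was not corrected for. Member sites lay early in the 3′UTR, at a median of 33.7% of its length for TTP-AA and 33.3% for TTP at 1 h, against 53.0% and 49.3% over all genes. The last 100 nt held 6.91% of TTP-AA member sites at 1 h (5.52 to 8.63) and 18.2% of the sites of all genes (17.9 to 18.5). Those 100 nt made up 9.27% and 10.8% of the 3′UTR positions of the same sites.

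Outside the 3′UTR the members held few cDNAs. The 3′UTR took 85.3% of member cDNAs in GFP-TTP (75.6 to 91.6) and 90.4% in GFP-TTP-AA (83.2 to 94.7) at 0 h, and 68.8% (61.5 to 75.2) and 95.1% (93.9 to 96.1) at 1 h. Over all protein-coding genes the 3′UTR took 44.9%, 55.4%, 37.4% and 85.6% in the same lists. At 4 h it took 8 of 16 member cDNAs in GFP-TTP. In each of the 5 lists with member cDNAs the member share was the higher.

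**Figure D4:**
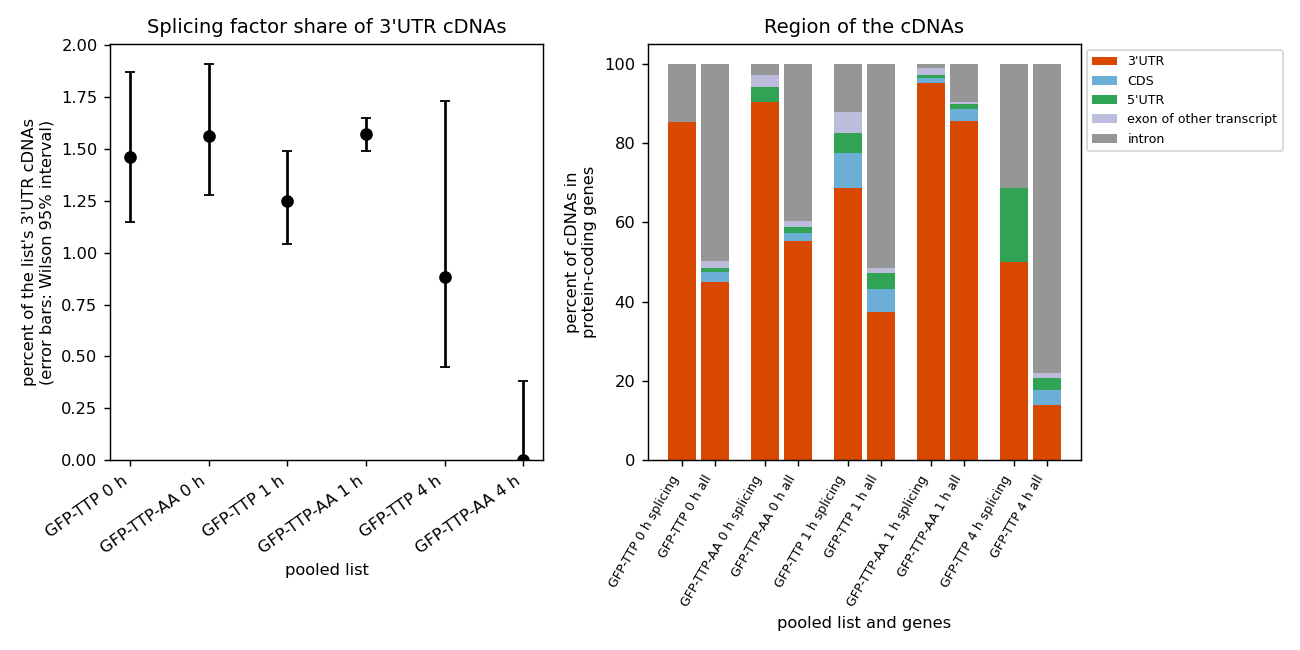
Left, share of each list's 3′UTR cDNAs that lay in hnRNP and SR genes, with Wilson 95% intervals; right, region of the cDNAs in these genes (splicing) and in all protein-coding genes (all) for the 5 lists with member cDNAs. The share lies between 1.25% and 1.57% in the 0 h and 1 h lists, and the 3′UTR part of the bar is larger for the splicing factors in every pair.

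Intron cDNAs were counted together with cDNAs in exons that only retained-intron, nonsense-mediated decay or other non-coding transcripts of the gene contain. Members held 30 such cDNAs in the GFP-TTP 1 h list, 21 of them outside every exon, and 44 in the GFP-TTP-AA 1 h list, 17 of them outside every exon. Srsf10, which encodes an SR protein that represses splicing when dephosphorylated, led with 4 TTP cDNAs at 0 h, 4 TTP and 3 TTP-AA at 1 h, 3 TTP at 4 h and 0 TTP-AA at 0 h and 4 h. All 11 TTP cDNAs fell on one nucleotide, position 135856497 of chromosome 4, in the 3 GFP-TTP lists, while the 3 TTP-AA cDNAs lay elsewhere in the gene. Pcbp2 held 3 TTP and 10 TTP-AA cDNAs of this class and Hnrnpa2b1 4 and 8, all at 1 h. Those of Hnrnpa2b1 all lay within the genomic span of its longest 3′UTR, between the exons of that 3′UTR. Hnrnpll held 3 TTP-AA cDNAs at 0 h and 5 at 1 h, and Hnrnpu held 7 TTP cDNAs at 1 h. Syncrip held 4 TTP cDNAs in introns at 0 h and 2 at 4 h.

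The leading sites of Pcbp2 and Hnrnpa2b1 in this class lay in transcripts with a retained intron, and their 30 bases are shown with the same use of capitals.
Pcbp2 intron: ucuccagcauuacuuuugauacccugccca
Hnrnpa2b1 intron: uaaccuaUUUUUUUUUacucuuuacuucug

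The Pcbp2 window (chr15:102489574-102489603, plus strand) held no run of 5 U and its leading site had 3 TTP-AA cDNAs at 1 h. The Hnrnpa2b1 window (chr6:51463264-51463293, minus strand) had a run of 9 U, and its leading site had 2 TTP cDNAs at 1 h. This window lies downstream of the stop codon, within the span of the longest 3′UTR (chr6:51460932-51463431, 523 nt after splicing). It is therefore not separate from the 3′UTR in the way the Pcbp2 window is. Hnrnpa1, encoding the most studied hnRNP A protein, held 5 TTP-AA cDNAs at 1 h in an exon of a nonsense-mediated decay transcript and none elsewhere. Srsf5 held 6 TTP-AA cDNAs at 1 h in a retained intron.

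In coding sequence, Hnrnpl had 4 cDNAs for TTP and 9 for TTP-AA after 1 h, of which 3 and 4 fell on the same nucleotide, position 28811138 of chromosome 7. Hnrnpa2b1 held 3 and 4, and Hnrnpu held 5 TTP cDNAs and 0 TTP-AA cDNAs at 1 h. All 3 had 0 coding sequence cDNAs at 0 h and 4 h. Hnrnpf, without 3′UTR cDNAs, held 3 TTP-AA cDNAs in its coding sequence at 1 h. Hnrnph2 was crosslinked in its 5′UTR alone, with 4 TTP-AA cDNAs at 0 h and 3 TTP cDNAs at 1 h.

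The question whether single mRNAs took a different share of the 3′UTR cDNAs in TTP-AA than in TTP was tested per gene with a two-sided Fisher's exact test, for genes with at least 10 cDNAs over both lists, with Benjamini-Hochberg adjustment over all genes tested. At 1 h, 24 members were tested among 2065 genes, and each of the 24 had its larger count in TTP-AA. Relative to the 9.78 times larger total of that list, the share of 15 was larger in TTP-AA and that of 9 in TTP. Over all genes tested, 68.8% were larger in TTP-AA. Of the members tested, 7 had 0 TTP cDNAs, as had 55.2% of all genes tested. Such genes reached the minimum of 10 through TTP-AA alone, so their direction was fixed in advance. The share was significantly higher in TTP-AA for 2 of 24 members, Hnrnpa0 and Srsf6, where 1.99% of all genes tested were called in that direction. It was significantly higher in TTP for 0 of 24, where 4.41% of all genes were, and 4 members had an unadjusted p below 0.05 in either direction. Hnrnpa0 and Srsf6 both had 0 TTP cDNAs, so the direction of both calls was fixed in advance. Of the 41 genes called higher in TTP-AA, 32 had 0 TTP cDNAs, these 2 included.

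Hnrnpa0 went from 0 TTP to 89 TTP-AA cDNAs (adjusted p = 0.00872, Fisher's exact test). With 3 counts taken for the 0, this was 29.7-fold more cDNAs and a 3.03-fold higher share. The lower 95% counting limit of its count ratio was 23.6. Srsf6 went from 0 to 84 (adjusted p = 0.0118, exact test). With 3 counts taken for its 0, this was 28-fold more cDNAs and a 2.86-fold higher share, and the lower limit was 22.3. Both lost the call in the exact test when each site was counted once (adjusted p = 0.229 and 0.0602) and when sites with 1 cDNA were left out (adjusted p = 0.0656 and 0.368). A further 5 of the tested members had 0 TTP cDNAs at 1 h, namely Srsf7, Srsf5, Tra2a, Hnrnpm and Srsf4. Of the genes tested, 55.2% had 0 TTP cDNAs, and among them the smallest TTP-AA count that was called was 66, so the 10 to 35 cDNAs of these 5 members could not show a difference at this depth.

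Among members not called, Hnrnpab had shares of 0.0837% in TTP and 0.173% in TTP-AA (odds ratio 2.07, adjusted p = 0.266, exact test). Hnrnpk leaned the other way, with 0.146% and 0.0674% (odds ratio 0.46, adjusted p = 0.143, exact test). The median log2 ratio of shares was 0.76 over the 24 members and 1.23 over all genes tested with 0.5 added to each count, but -0.08 and -0.71 when counts under 3 were set to 3, so its sign depends on the treatment of low counts. When the share was taken of all cDNAs of the list rather than of 3′UTR cDNAs, 22 of 24 members, and 1754 of all 2065 genes tested, were called higher in TTP-AA, and the median log2 ratio of all genes moved from 1.23 to 3.71.

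**Figure D5:**
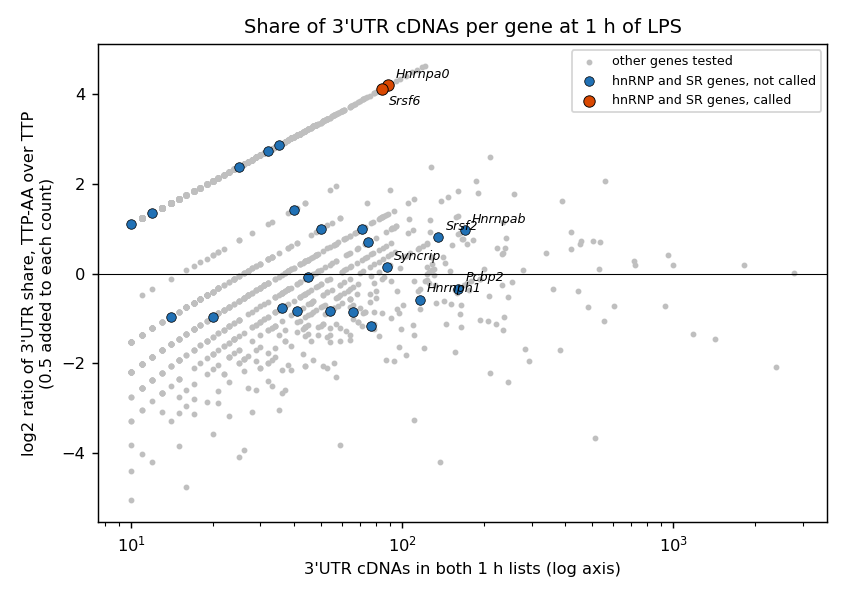
Log2 ratio of the share of 3′UTR cDNAs in GFP-TTP-AA over GFP-TTP at 1 h for each gene tested, against its cDNAs in both lists (log axis), with 0.5 added to each count; 24 hnRNP and SR genes are drawn larger. Hnrnpa0 and Srsf6 (orange) lie on the upper line of genes with 0 TTP cDNAs, and the other 22 lie on both sides of 0.

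At 0 h, 4 members were tested among 241 genes and 0 were called by the exact test, where 17.4% of all genes were called towards TTP-AA and 13.3% towards TTP; 0 members had an unadjusted p below 0.05. The shares were 0.229% in TTP and 0.366% in TTP-AA for Hnrnpa0, 0.389% and 0.466% for Hnrnpab, 0.206% and 0.2% for Srsf2, and 0.114% and 0.183% for Pcbp2, with adjusted p between 0.475 and 1.0. At 4 h no member reached 10 cDNAs. For the intron class at 1 h, 2 members were tested among 298 genes and 0 were called, where 27.9% of all genes were called towards TTP-AA and 13.8% towards TTP. Pcbp2 (odds ratio 4.04, adjusted p = 0.0577, exact test) had an unadjusted p below 0.05, and Hnrnpa2b1 (odds ratio 2.43, adjusted p = 0.249, exact test) did not.

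Between 0 h and 1 h of LPS, 3 of 9 members tested for TTP were called, 1 with a higher share at 1 h and 2 at 0 h. With 9 members tested, these counts cannot be told apart from the shares of all genes. Among the 276 genes tested, Hnrnph1 alone of the members had a higher share at 1 h, where 23.9% of all genes were called in that direction. It went from 0 to 15 cDNAs (adjusted p = 0.0172, exact test). With 3 counts taken for the 0, its share was 2.29-fold higher. The lower 95% counting limit of its count ratio was 3.59, against a ratio of 2.19 between the list totals. Hnrnpa0 and Hnrnpab had a higher share at 0 h, where 23.6% of all genes were called. Hnrnpa0 went from 10 cDNAs to 0 (adjusted p = 7.23e-05, exact test) and Hnrnpab from 17 to 8, or from 0.389% to 0.0837% of the 3′UTR cDNAs (adjusted p = 0.00139, exact test). Hnrnph1 reached the minimum of 10 through the 1 h list alone and Hnrnpa0 through the 0 h list alone. The direction of these 2 calls was therefore fixed in advance. With each site counted once, Hnrnpab was still called, Hnrnph1 was not (adjusted p = 0.0547, exact test, with a log2 ratio of 3.51 against 3.83), and Hnrnpa0 had too few sites to be tested, and no member reached 10 cDNAs for testing when sites with 1 cDNA were left out. For TTP-AA, 24 members were tested among 2052 genes. The share was called higher at 1 h for 0 of them (6 members had an unadjusted p below 0.05 in either direction), where 2.73% of all genes were called, and higher at 0 h for 2, where 9.7% were. With 24 members tested, these 2 calls cannot be told apart from the 9.7% of all genes. The 2 were Hnrnpa0, from 0.366% to 0.0952% (22 to 89 cDNAs, adjusted p = 2.77e-05, exact test), and Hnrnpab, from 0.466% to 0.173% (28 to 162 cDNAs, adjusted p = 0.000487, exact test). Their counts were thus higher at 1 h and their shares lower, as the 3′UTR total of TTP-AA was 15.6 times larger at 1 h. As a share of all cDNAs of the list, Hnrnpab was nearly level for TTP-AA (log2 ratio 0.09, adjusted p = 0.817, exact test) and Hnrnpa0 was no longer called (adjusted p = 0.317), while the median log2 ratio of all genes tested moved from 0.89 to 2.43.

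Other splicing genes were taken from 3 lists of known factors. The share of each list lay below the 1.57% of the members. The lists held 30, 17 and 23 genes against 37 members, and the shares were not scaled by gene number. Of 30 core spliceosome and U2AF genes, 17 had TTP-AA 3′UTR cDNAs at 1 h, and these made up 0.204% of the list's 3′UTR cDNAs (0.177 to 0.235). Of 17 SR-related proteins and SR kinases, 13 did (0.158%, 0.135 to 0.186), and of 23 other splicing regulators 18 did (0.779%, 0.724 to 0.837). In the 1 h test, 7, 8 and 11 genes of these lists were tested. None was called higher in TTP-AA, and Sf1, the branch point-binding protein (9 TTP and 25 TTP-AA cDNAs, adjusted p = 0.0489, exact test), and Srrm2, a large SR-related spliceosome scaffold (9 and 12, adjusted p = 0.00217, exact test), were called higher in TTP.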

How the data were processed

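The authors removed PCR duplicates by random barcode, mapped reads to mm10 (GRCm38, Ensembl 75) with Bowtie, took the base before each read as the crosslink site, summed libraries of a group and kept sites that iCount called at a false discovery rate of 0.05. The deposited values are a score, the signed number of unique cDNAs per site with the strand as its sign; library depth is not given, and the 6 lists are the only depth known. The GTF of GENCODE M21 (GRCm38) was used here for regions, in the order 3′UTR, CDS, 5′UTR, non-coding gene exon, other transcript exon, intron (bedtools 2.31.1). Sequences came from its transcripts; no genome sequence was used, so motifs at intron sites were not analysed. Fisher's exact tests (scipy 1.17.1) used at least 10 cDNAs per gene and an adjusted threshold of 0.05, with a pseudocount of 0.5 for log2 ratios alone and a floor of 3 counts. They were tried on simulated independent Poisson counts per gene, without variation between libraries, clustered sites or peak calling. Of 1878 unchanged genes in the simulated 1 h comparison 2 were called. So were 45 of 52 genes with 8-fold higher, 16 of 47 with 4-fold higher and 6 of 12 with 0.25-fold shares in TTP-AA. These rates need not hold for the pooled lists.

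Members and gene lists were chosen with earlier results of these data known. Members named with all values were the 10 with most 3′UTR cDNAs, the 5 with most intron class cDNAs, the 3 with most coding sequence cDNAs and any past the threshold; sequences were taken for 8 members in 3′UTRs and 3 in introns, where Srsf10 had no transcript over its site. Other members named were chosen after their values were seen. Alternatives changed the unit counted, the minimum, the denominator, the region order, the transcripts, the motif window and the distance for shared sites.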

Additional observations from a re-analysis of the deposited data

Results flagged for a closer look

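Of the 4 members tested at both 0 h and 1 h, 2 had a share of 3′UTR cDNAs that moved in opposite directions between TTP-AA and TTP at these times. For Pcbp2 the log2 ratio of shares, TTP-AA over TTP, was 0.605 at 0 h and -0.335 at 1 h. For Srsf2 it was -0.064 at 0 h and 0.82 at 1 h. None of the 4 ratios passed the threshold of the exact test, and the difference between the times was not tested.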

How the results depend on the processing

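No paired analysis was possible because the lists are sums over libraries; leaving out replicates was not run for the same reason. Members called higher in TTP-AA at 1 h numbered 2 of 24 in the 3′UTR test, against 41 of all 2065 genes. Each site counted once gave 0 of 24, against 17 of 1884 genes. Only sites of at least 2 cDNAs gave 1 of 17 (Hnrnpab), against 30 of 794 genes. All cDNAs of the list as denominator gave 22 of 24, against 1754 of 2065 genes. Outside the ribosomal RNA locus it also gave 22 of 24, against 1632 of 2065 genes. With a minimum of 5 cDNAs, 1 member (Hnrnph1) was called higher in TTP at 4 h (27 of all 78 genes were), and in the intron class at 1 h 3 members (Hnrnpa1, Hnrnpll, Srsf5) of 8 were called higher in TTP-AA and 1 (Hnrnpu) in TTP, against 241 and 81 of all 723 genes. Each of these members had 0 cDNAs in the other list of its comparison, so the direction of its call was fixed in advance. A restriction to sites outside every exon, chosen after seeing the data, left 0 members to test. For TTP between 0 h and 1 h, 1 of 9 members was called higher at 1 h and 2 at 0 h, against 66 and 65 of all 276 genes. With each site counted once these were 0 and 1 of 7 members, against 36 and 31 of 223 genes. With only sites of at least 2 cDNAs 0 members were tested, and 24 and 23 of 78 genes were called. For TTP-AA, all cDNAs of the list as denominator gave 13 of 24 members higher at 1 h and 0 higher at 0 h, against 466 and 37 of all 2052 genes, and Hnrnpab changed sign (log2 ratio 0.093).

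With at least 2 cDNAs per site, the 3′UTR took 100.0% (GFP-TTP-AA 0 h), 80.4% (GFP-TTP 1 h) and 97.6% (GFP-TTP-AA 1 h) of member cDNAs, and the TTP-AA over TTP ratio was 3.0 at 0 h and 15.4 at 1 h; per library it was 16.5 at 1 h. AUUUA lay within 50 nt of 35.1% (GFP-TTP 0 h), 40% (GFP-TTP 1 h) and 34.5% (GFP-TTP-AA 1 h) of member sites, and within 10 nt of 10.5% in the last. UUUUU lay within 10 nt of 40.4%, 56.8% and 32.4% in the same lists, and within 50 nt of 86.0%, 86.3% and 63.9%, and of 69.4% in GFP-TTP-AA 0 h. Weighted by cDNAs, UUUUU lay near 49.2% in GFP-TTP-AA 1 h. There UAUUUAU lay within 10 nt of 1.46%, and UGUGU within 10 nt of 3.8% and 50 nt of 21.4%. Sites shared at the same nucleotide were 7.02% of TTP and 5.56% of TTP-AA sites at 0 h and 49.5% and 4.58% at 1 h, and within 30 nt 34.8% of TTP-AA sites at 1 h. The cause of these moves was not tested. Of the remaining values, 40 shares and ratios stayed within the counting interval of the reported value, and 73 counts of called members within 1.5 times it; of these counts 32 had 0 members tested, and one went from 2 to 3 (Srsf2, higher at 0 h for TTP, with all cDNAs of the list as denominator).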
